A study of Mus musculus with 6 samples.

Results

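The genes that drive cells from G1 into S phase were examined in mouse molar pulp: the D-type cyclins *Ccnd1*, *Ccnd2* and *Ccnd3*, the E-type cyclins *Ccne1* and *Ccne2*, the kinases *Cdk4*, *Cdk6* and *Cdk2*, the retinoblastoma gene *Rb1* and the transcription factor *E2f1*. These 10 genes were taken by symbol from the 27506 genes of the count table, for their place in the pathway and with earlier results of these data known, and all 10 passed the filter on low counts. The libraries were made from RNA of dental pulp taken from lower first molars of C57BL/6 mice at postnatal day (P)3.5. There were 3 control libraries, whose mice carried floxed *Ror2* alleles without a stated Cre (Ror2fl/fl), and 3 mutant libraries from Osr2-Cre;Ror2fl/fl mice, in which the same alleles were combined with *Osr2-Cre*. According to the study, *Osr2-Cre* is active in the dental mesenchyme and alveolar bone and not in the dental epithelium, so epithelial cells of the mutant keep *Ror2*. No library was labelled as carrying *Osr2-Cre* with wild-type *Ror2*, so an effect of Cre and an effect of the deletion cannot be told apart. The sample titles carry letter codes whose meaning is not given. These are WW for control library 1, OW for control libraries 2 and 3, and OR for the mutant libraries. Whether the controls differ from each other in genotype is therefore not known beyond their shared label. The labels do not say whether each library is a separate animal, or whether control and mutant libraries were collected and sequenced together. If they were handled in separate sets, a difference between sets could not be told apart from one of genotype. The p-values below measure only the spread between these libraries.

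In the textbook view of the cell cycle, growth signals raise the D-type cyclins, which bind Cdk4 and Cdk6 and begin to phosphorylate the retinoblastoma protein. Unphosphorylated retinoblastoma protein holds E2F factors in check, and its phosphorylation releases them to transcribe the E-type cyclins and the genes of DNA synthesis. Cyclin E with Cdk2 then completes the phosphorylation, and in growing teeth mesenchymal cells pass this step repeatedly before they leave the cycle to become odontoblasts.

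The members are related in sequence, and the stretches below are shown because reads of 75 bases must tell them apart. The D-type cyclins bind the retinoblastoma protein through an LxCxE motif close to the start of the protein. The first 60 coding bases of each are given 5′ to 3′ from the GENCODE M21 transcripts (mm10 build), with the codons of that motif in capitals. They are codons 5 to 9 in *Ccnd1* and codons 3 to 7 in *Ccnd2* and *Ccnd3*.
Ccnd1: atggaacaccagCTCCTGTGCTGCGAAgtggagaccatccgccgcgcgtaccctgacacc
Ccnd2: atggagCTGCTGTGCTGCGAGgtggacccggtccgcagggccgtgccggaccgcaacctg
Ccnd3: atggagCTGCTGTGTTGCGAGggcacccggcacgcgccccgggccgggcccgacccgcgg

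The kinases take hold of their cyclins through the helix named PSTAIRE after its residues in Cdk2. The 60 coding bases around it are shown from the same source, again 5′ to 3′, with the codons of the helix motif of *Cdk2* and the matching codons of *Cdk4* and *Cdk6* in capitals. The motif spans codons 45 to 51 in *Cdk2*, 50 to 56 in *Cdk4* and 55 to 61 in *Cdk6*.
Cdk2: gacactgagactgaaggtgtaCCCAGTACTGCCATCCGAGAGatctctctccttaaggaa
Cdk4: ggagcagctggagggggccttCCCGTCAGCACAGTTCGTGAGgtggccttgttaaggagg
Cdk6: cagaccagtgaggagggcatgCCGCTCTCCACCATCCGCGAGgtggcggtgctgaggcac
Over the aligned coding sequence, 65.9% of bases were identical between *Ccnd1* and *Ccnd2*, 58.5% between *Ccne1* and *Ccne2*, and 62.6% between *Cdk4* and *Cdk6*. The longest run shared by any of these pairs was 20 bases, and no 75-base stretch was common to 2 members. The members could therefore be counted apart from each other, whereas 8 of them overlap exons of a gene on the opposite strand, and the use of strand in the counting is not given in the sources used here.

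The targeted gene *Ror2* (chromosome 13, 53109312 to 53286124, minus strand, mm10) lay between 36.2 and 38.2 CPM (counts scaled to a common library size with edgeR's TMM factors) in control and between 26.3 and 28.1 CPM in mutant libraries. Its log2 fold change, mutant over control, was -0.43 (SE 0.08, adjusted p = 0.0134 by edgeR's quasi-likelihood test, adjusted by Benjamini-Hochberg over all genes), and adjusted p was 0.0664 without control library 2 and 0.0752 without control library 3 (0.000212 to 0.0752 over all alternatives). All its exons were summed, so RNA with and without the floxed region was counted together. The libraries held 56134770 to 62628940 estimated counts each. Of 19330 genes tested, 20.2% were called at an adjusted p under 0.05, 9.84% lower and 10.4% higher in the mutant, and the 3 control and 3 mutant values did not overlap for 44.7%. The 10 marker genes of dental mesenchyme were all detected, at a summed 17883 to 52575 CPM in control and 15520 to 41023 CPM in mutant libraries. *Col1a1* and *Col1a2* make up nearly all of this sum. Of the 10, *Prrx1* was called lower (-0.69, adjusted p = 0.0178) and *Msx2* higher (0.38, adjusted p = 0.0416, both edgeR). Odontoblast markers, at a summed 3624 to 9404 CPM in control and 3272 to 7653 CPM in mutant libraries, overlapped, with none called. The 8 markers of dental epithelium were detected too, at 153844 to 170968 CPM in control and 175749 to 239498 CPM in mutant libraries, which did not overlap. The enamel genes *Amelx* and *Ambn* make up nearly all of that sum, and took 15.4% to 16.8% and 17.6% to 22.2% of all counts of libraries labelled dental pulp. *Amelx* had 94466 ± 5376 CPM in control and 139642 ± 19159 CPM in mutant libraries (SD, n = 3) without overlap, as had the less abundant *Krt14*, whereas *Ambn*, at 64773 ± 3896 and 60042 ± 13294 CPM, and *Krt5*, *Krt17*, *Cdh1* and *Epcam* overlapped. None of the 8 epithelial markers passed the main test, 4 were higher at an unadjusted p under 0.05, and DESeq2, edgeR's likelihood ratio test and limma voom called 3, 1 and 4 of them higher. Markers of skeletal muscle had a summed 11.6 to 38.1 CPM in control and 3.38 to 4.73 CPM in mutant libraries, with 7 of 8 called lower, those of blood had 782 to 1320 and 244 to 933 CPM, with 2 of 6 lower, and those of leukocytes, endothelium and Schwann cells overlapped. For muscle and blood, DESeq2 and edgeR's likelihood ratio test called the same numbers lower. Limma voom called 2 of the 8 muscle markers and 5 of the 6 blood markers lower. The part of these cell types in the values below was not tested, and in bulk RNA fewer cells of a type and less RNA per cell cannot be told apart.

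In the mutant, expression of *Ccnd2* fell by 34.8%, that of *Ccne2* fell by 41.4% and that of *Rb1* fell by 36.4% in the main test, and no member rose. They are a D-type cyclin, an E-type cyclin and the gene that both kinds of cyclin act on. *Ccnd1*, *Ccnd3*, *Ccne1*, the kinases and *E2f1* did not pass the test, and differences between members were not tested. In all, 3 of 10 members were called lower, where 9.84% of all tested genes were called lower. The fitted log2 fold change was below 0 for 8 members and above 0 for 2, with a median of -0.24 against 0.01 over all tested genes. The groups did not overlap for 5 members, *Ccnd2*, *Ccne2*, *Rb1* and *E2f1* being lower and *Cdk2* higher, where 44.7% of all tested genes did not overlap. An exact permutation test of 3 against 3 libraries cannot give a two-sided p below 0.1, which is the value for each of these 5. DESeq2, edgeR's likelihood ratio test and limma voom also called 3 members lower and none higher. Limma voom called more of all tested genes than the main test did, and the shares over all genes with DESeq2 and the likelihood ratio test are not given here. At an unadjusted p under 0.05 the main test had 4 members lower and 0 higher. With an offset for GC content, a term that takes out the trend of counts with base composition in each library, 1 member, *Ccnd2*, was called, with *Ccne2* at -0.29 in place of -0.77 and *Rb1* at -0.41 in place of -0.65 on the log2 scale, and without control library 2 or control library 3 none was (edgeR).

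**Figure D1:**
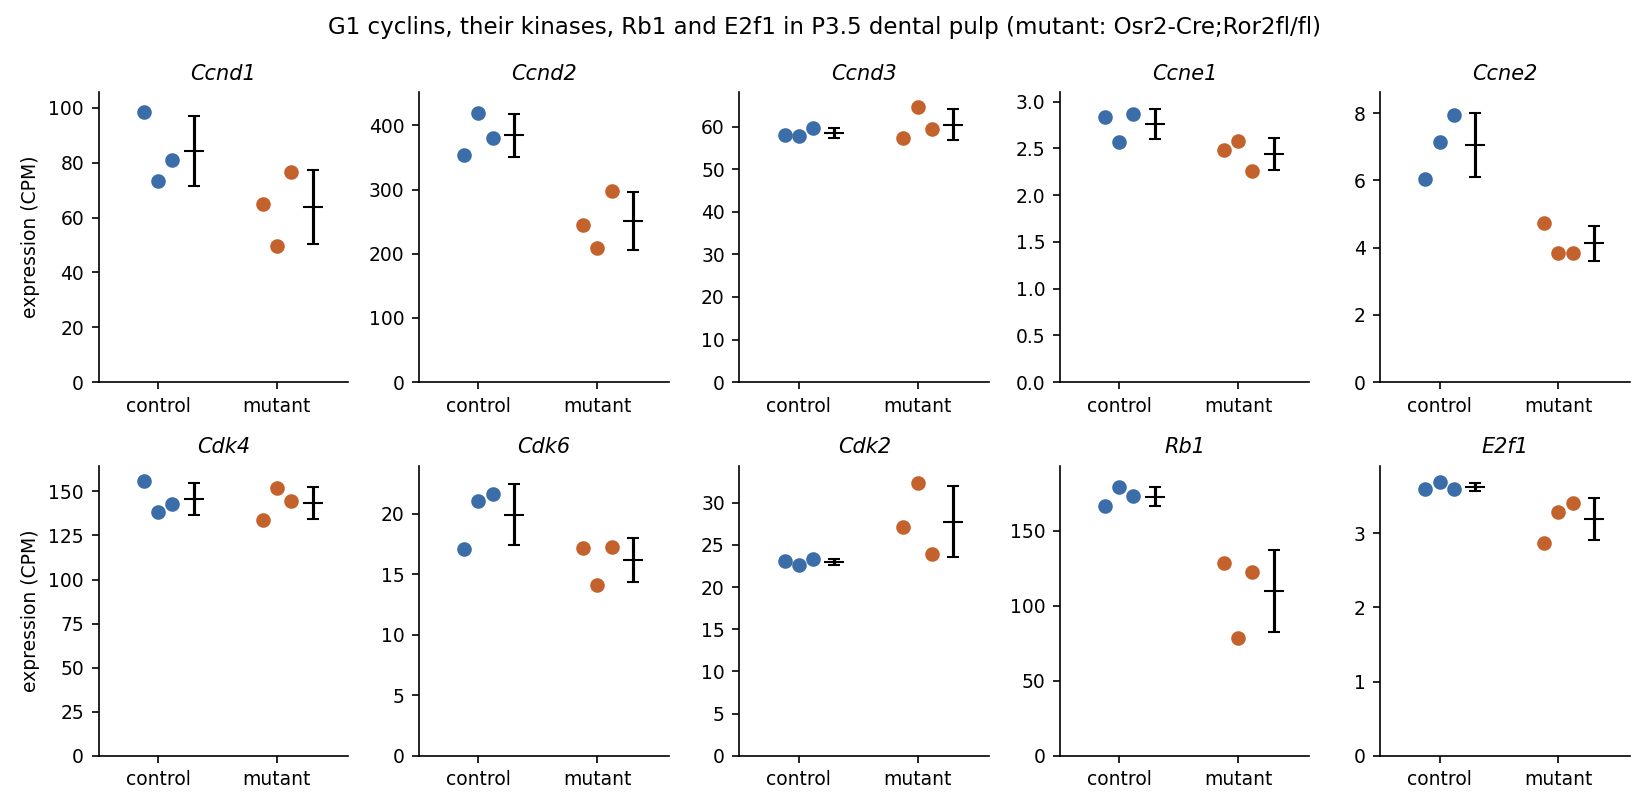
Expression of the 10 genes in CPM (y axis, from 0), with 1 point for each of the 3 control and 3 mutant libraries and a bar for mean ± SD. Control and mutant points are apart for *Ccnd2*, *Ccne2*, *Rb1*, *E2f1* and *Cdk2*, and mixed for the others.

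Of the D-type cyclins, *Ccnd2* passed the test and *Ccnd1* and *Ccnd3* did not, and whether their changes differ was not tested. *Ccnd2* (chromosome 6, 127125162 to 127152193, minus strand), the most abundant of them, had 353, 420 and 380 CPM in control libraries 1, 2 and 3 and 245, 209 and 298 CPM in mutant libraries 1, 2 and 3. Every mutant library was below every control library, and mutant library 2 was the lowest. The mean fell from 384 ± 33.5 to 251 ± 44.9 CPM (SD, n = 3), a log2 fold change of -0.62 (SE 0.15, adjusted p = 0.0269, edgeR's quasi-likelihood test). The call was lost without control library 2 (adjusted p = 0.112), control library 3 (0.1) or mutant library 1 (0.0732, edgeR throughout), within a range of 0.000848 to 0.112 over all alternatives, while the log2 fold change stayed between -0.77 and -0.43.

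*Ccnd1* (chromosome 7, 144929931 to 144939925, minus strand), the D-type cyclin best known as a target of growth factor and Wnt signals, had 98.4, 73.5 and 81.0 CPM in the controls and 64.9, 49.7 and 76.6 CPM in the mutants. The groups overlapped, since mutant library 3 was above control library 2. The means were 84.3 ± 12.7 and 63.7 ± 13.5 CPM (SD, n = 3), and the log2 fold change of -0.40 (SE 0.17) had an unadjusted p of 0.0454 and an adjusted p of 0.123 by edgeR's quasi-likelihood test. *Ccnd1* did not pass the threshold under any of 19 alternatives. *Ccnd3* (chromosome 17, 47505051 to 47599691, plus strand), the D-type cyclin often linked to differentiated cells, had 57.9, 57.8 and 59.8 CPM in the controls and 57.4, 64.5 and 59.5 CPM in the mutants. These values overlapped, with a log2 fold change of 0.05 (SE 0.09, adjusted p = 0.715, edgeR).

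The make-up of the D-type pool differed between libraries, as the plot of cyclin shares shows. Summed, the 3 cyclins had 527 ± 21.5 CPM in control and 375 ± 55.9 CPM in mutant libraries (SD, n = 3), without overlap. Levels were divided by kilobases of exon to add genes of different length. Exon length here merges all annotated exons of a gene, 8775 bases for *Ccnd3*, so the size of a share depends on the annotation too. Per kilobase of exon, *Ccnd3* made up 10.2%, 9.86% and 10.6% of the pool in control and 14.1%, 18.3% and 12.4% in mutant libraries. Every mutant share of *Ccnd3* was above every control share, although its own level overlapped. The share of *Ccnd2* was 57.7%, 66.8% and 62.7% in control and 56.1%, 55.4% and 57.9% in mutant libraries, and control library 1 lay within the mutant range. The share of *Ccnd1* overlapped as well, at 27.4% ± 4.42 and 28.6% ± 1.98 (SD, n = 3). Without division by exon length, the shares of *Ccnd2* and *Ccnd3* did not overlap between the groups and that of *Ccnd1* did. Shares within a library depend on each other and were not tested.

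Of the E-type cyclins, *Ccne2* passed the test and *Ccne1* did not, and the difference between their changes was not tested either. *Ccne2* (chromosome 4, 11191351 to 11204779, plus strand), which activates Cdk2 at the end of G1, had 6.06, 7.14 and 7.95 CPM in the controls and 4.72, 3.83 and 3.83 CPM in the mutants, from 221 to 491 counts per library. All mutant values were below all control values. The mean went from 7.05 ± 0.951 to 4.13 ± 0.513 CPM (SD, n = 3), and the log2 fold change of -0.77 (SE 0.16, adjusted p = 0.0169, edgeR's quasi-likelihood test) was the furthest from 0 among the 10 members in this fit. The call was lost without control library 2 (adjusted p = 0.0767) and without control library 3 (0.0898, both edgeR; 0.000417 to 0.382 over all alternatives). With the GC offset it was lost too, at a log2 fold change of -0.29 (adjusted p = 0.284, edgeR), and over all alternatives the log2 fold change lay between -0.88 and -0.29. *Ccne1* (chromosome 7, 38097984 to 38107534, minus strand), its close relative, had 2.84, 2.57 and 2.87 CPM in the controls and 2.49, 2.58 and 2.25 CPM in the mutants, from 133 to 183 counts per library. Mutant library 2 and control library 2 were nearly level, so the groups overlapped, and the log2 fold change was -0.18 (SE 0.17, adjusted p = 0.458, edgeR).

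Per kilobase of exon, *Ccne2* made up 61.9%, 67.9% and 67.9% of the E-type transcripts in control and 59.1%, 53.0% and 56.4% in mutant libraries. The shares did not overlap and their mean was lower by 9.69 percentage points, from 65.9% ± 3.46 to 56.2% ± 3.04 (SD, n = 3). Their summed level was 9.81 ± 0.964 CPM in control and 6.57 ± 0.576 CPM in mutant libraries.

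**Figure D2:**
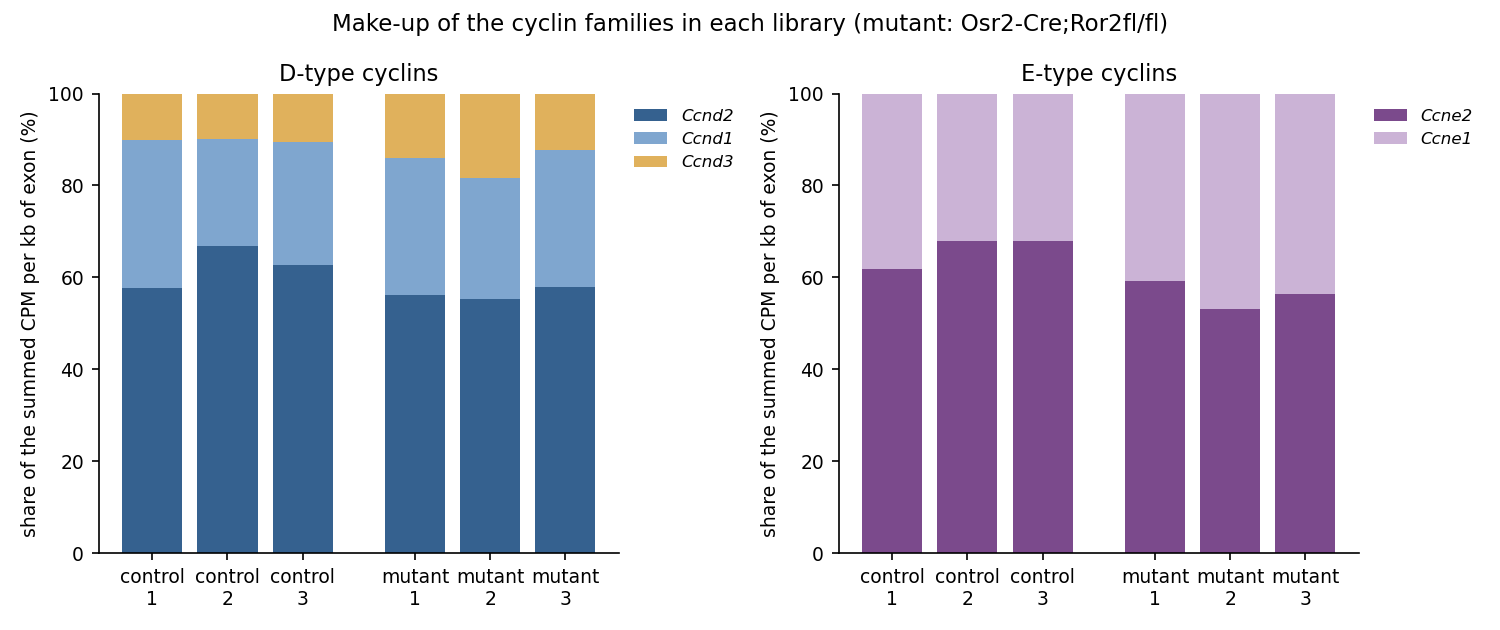
Make-up of the D-type (left) and E-type (right) cyclin transcripts in each of the 6 libraries, as the share of the summed CPM per kb of exon (y axis, %). The *Ccnd3* share is 9.86% to 10.6% in control and 12.4% to 18.3% in mutant libraries, and the *Ccne2* share is 61.9% to 67.9% and 53.0% to 59.1%.

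None of the kinases passed the test. *Cdk4* (chromosome 10, 127063534 to 127067920, plus strand), the partner of D-type cyclins in most cells, had 156, 138 and 143 CPM in the controls and 134, 152 and 145 CPM in the mutants. The values were interleaved, with a log2 fold change of -0.02 (SE 0.10, adjusted p = 0.891, edgeR). *Cdk6* (chromosome 5, 3341485 to 3531008, plus strand), the other D-type partner, had 17.1, 21.1 and 21.6 CPM in the controls and 17.2, 14.1 and 17.3 CPM in the mutants. Control library 1 lay within the mutant range, and the log2 fold change was -0.30 (SE 0.13, adjusted p = 0.14, edgeR). Together *Cdk4* and *Cdk6* had 166 ± 6.78 CPM in control and 160 ± 7.52 CPM in mutant libraries (SD, n = 3), a ratio of 0.964, while the ratio for the D-type cyclins was 0.711.

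*Cdk2* (chromosome 10, 128697939 to 128705031, minus strand), the partner of cyclin E, had 23.1, 22.6 and 23.3 CPM in the controls and 27.1, 32.3 and 23.9 CPM in the mutants. It was the member whose mutant values all lay above the controls, by a wide margin in mutant library 2 and a narrow margin in mutant library 3. The log2 fold change of 0.27 (SE 0.12) had an adjusted p of 0.14 by edgeR's quasi-likelihood test. Without mutant library 3 it was 0.36 with an adjusted p of 0.0488, past the threshold (edgeR; 0.0488 to 0.338 over all alternatives).

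*Rb1* (chromosome 14, 73183673 to 73325822, minus strand), which encodes the retinoblastoma protein, had 166, 179 and 173 CPM in the controls and 129, 78.6 and 122 CPM in the mutants. All mutant values were below all control values, and mutant library 2 stood well below the other mutants. The mean fell from 173 ± 6.44 to 110 ± 27.2 CPM (SD, n = 3), a log2 fold change of -0.65 (SE 0.18, adjusted p = 0.0374, edgeR's quasi-likelihood test). Leaving out mutant library 2 brought it to -0.45 with a smaller SE of 0.08 and an adjusted p of 0.0122. The call was lost without control library 1 (0.0757), control library 2 (0.123) or control library 3 (0.116, adjusted p from edgeR; 0.00404 to 0.181 over all alternatives), and with the GC offset at -0.41 (0.171). Over all alternatives the log2 fold change lay between -0.78 and -0.37.

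*E2f1* (chromosome 2, 154559407 to 154569892, minus strand), an activating E2F factor whose protein the retinoblastoma protein restrains, had 3.60, 3.69 and 3.60 CPM in the controls and 2.88, 3.29 and 3.41 CPM in the mutants, from 170 to 232 counts per library. The mutant values were below the control values, with a narrow gap between mutant library 3 and the controls. The log2 fold change was -0.19 (SE 0.15, adjusted p = 0.402, edgeR), and no alternative brought it past the threshold.

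Leaving out control library 2 or control library 3 left 0 of the 10 members called by edgeR's quasi-likelihood test, with 4 and 3 lower and 0 higher at an unadjusted p under 0.05. The number of all genes called dropped as well, from 3906 to 910 and 872. Mutant library 2 was the mutant furthest from the controls for *Ccnd1*, *Ccnd2*, *Cdk2*, *Cdk6* and *Rb1*, and without it the 3 calls stayed. That library also had 9.41% of its counts in the ribosomal RNA gene CT010467.1, against 1.17% to 6.75% in the other libraries.

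Levels spanned a wide range, compared here as CPM per kilobase of exon, with all annotated exons of a gene merged. The order between genes therefore depends on the annotation as well as on the RNA present. In control libraries the order was *Cdk4* at 44.8 ± 2.79, *Ccnd2* at 40.8 ± 3.56, *Rb1* at 28.7 ± 1.07, *Ccnd1* at 17.9 ± 2.71 and *Ccnd3* at 6.67 ± 0.125 (SD, n = 3). Below these lay *Cdk2* at 3.70 ± 0.0551, *Ccne2* at 2.02 ± 0.272, *Cdk6* at 1.42 ± 0.178, *E2f1* at 1.15 ± 0.0164 and *Ccne1* at 1.04 ± 0.0611. Among neighbours in this order, *Cdk4* and *Ccnd2* overlapped between libraries and the others did not. In mutant libraries the order of the means was the same, at 44.2 ± 2.73 for *Cdk4*, 26.6 ± 4.77 for *Ccnd2*, 18.3 ± 4.52 for *Rb1*, 13.5 ± 2.86 for *Ccnd1* and 1.18 ± 0.147 for *Ccne2*. There *Cdk4* and *Ccnd2* no longer overlapped, *Rb1* and *Ccnd1* did, and *Ccne2*, *Cdk6*, *E2f1* and *Ccne1* formed an overlapping series from 1.35 down to 0.847.

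Base composition moved with the fold changes. *Ccne2*, at 36.3% GC in its longest transcript, *Rb1* at 41.2%, *Cdk6* at 45.1% and *Ccnd2* at 47.1% were the 4 members lowest in GC, and 3 of them carried the calls. Across all tested genes the median log2 fold change was -0.37 under 40% GC, -0.21 from 40% to 45%, -0.06 from 45% to 50%, 0.10 from 50% to 55% and 0.21 at 55% or more. The share of genes called lower was 27.0%, 17.8%, 9.86%, 5.19% and 2.95% in the same order. *Ccne2* and *Rb1* thus lay in GC ranges where lower calls were frequent, and *Ccnd2* in a range close to the average of all genes.

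**Figure D3:**
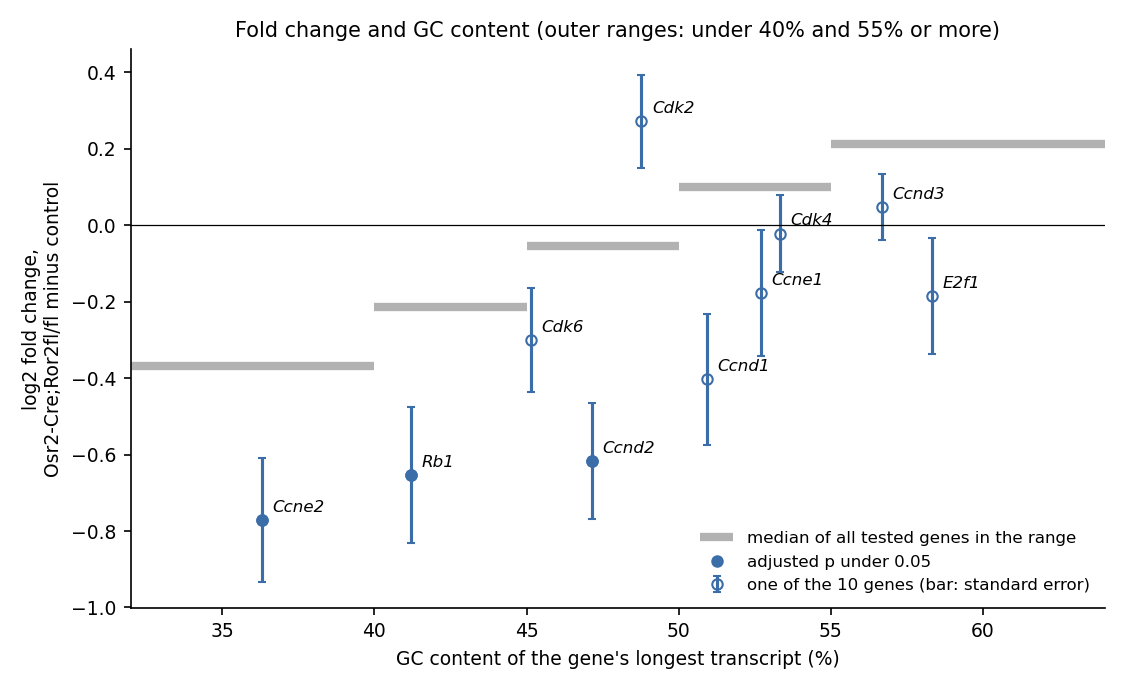
Log2 fold change, mutant over control (y axis, bars are SE), against the GC content of the longest transcript (x axis, %) for the 10 genes, with grey bars for the median of all tested genes in each GC range. *Ccne2*, *Rb1* and *Ccnd2* (filled) lie below the median of their ranges, which itself goes from -0.37 to 0.21.

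With an offset for GC content in the edgeR fit, *Ccnd2* kept its call at -0.58 (SE 0.15, adjusted p = 0.0424). *Ccne2* moved to -0.29 (SE 0.17, adjusted p = 0.284) and *Rb1* to -0.41 (SE 0.19, adjusted p = 0.171), and both lost theirs. The offset left 1 of 10 members called lower, where 6.44% of all tested genes were called lower in that fit. *Ccnd1* and *E2f1* lay further below 0 with it, at -0.50 and -0.40 (adjusted p = 0.0985 and 0.119, edgeR), without passing the threshold. With an offset for exon length alone, 8.79% of all genes were called lower, and *Ccnd2* at -0.43 (adjusted p = 0.0461), *Ccne2* at -0.79 (0.018) and *Rb1* at -0.57 (0.0493, all edgeR) kept their calls. With offsets for GC content and exon length together, 6.71% of all genes were called lower, and *Ccnd2* was at -0.44 (adjusted p = 0.044), *Ccne2* at -0.30 (0.298), *Rb1* at -0.37 (0.176) and *Cdk6* at 0.01 (0.959, all edgeR). *Ccnd2* thus passed the threshold in the fit without offsets and in these 3 fits with them. *Ccne2* and *Rb1* passed in the fit without offsets and in that with the exon length offset alone. In a further fit, with the GC offset and a block for replicate number, *Ccnd2* did not pass (-0.59, adjusted p = 0.0899, edgeR).

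**Figure D4:**
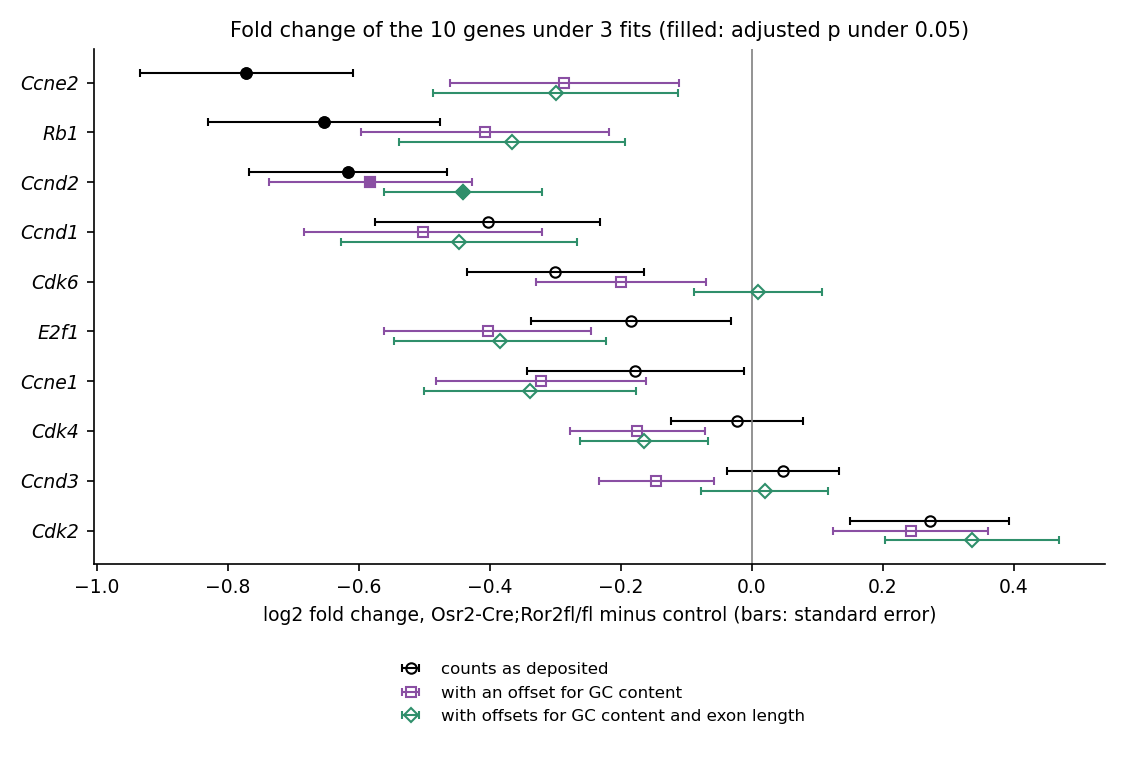
Log2 fold change, mutant over control (x axis, bars are SE), of the 10 genes from the counts alone and with offsets for GC content or for GC content and exon length, filled where the adjusted p was under 0.05. *Ccnd2* is filled in each fit at -0.62, -0.58 and -0.44, and *Ccne2* and *Rb1* in the first alone.

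Overlapping genes could add reads to a member or take them from it. *Ints8*, whose exons overlap *Ccne2* on the opposite strand and share 12.8% of its 75-base stretches, went from 36.9 ± 1.57 to 26.2 ± 3.75 CPM (SD, n = 3), a log2 fold change of -0.49 (adjusted p = 0.0246, edgeR). It was several times more abundant than *Ccne2* itself. With the pair summed, the log2 fold change was -0.53 (adjusted p = 0.0145, edgeR), so the sum is mostly a measure of *Ints8*. *Rb1* shares 5.84% of its stretches with *Rcbtb2* and 4.52% with *Lpar6*, and the sum of the 3 genes was at -0.59 (adjusted p = 0.0225, edgeR), with *Rcbtb2* alone at -0.44 (0.0138). With all such sums made, 9.83% of the tested genes were called lower. *Ccnd1* shares 20.6% with *LTO1*, which had 14.5 ± 0.427 CPM in control and 17.6 ± 2.49 CPM in mutant libraries, and their sum differed by -0.28 (adjusted p = 0.167, edgeR). For *Ccnd2* the antisense genes Gm43126 and 9330179D12Rik share 3.18% and 2.34%. Gm43126 had 0 counts in every control library and 2.62, 6.45 and 0.746 CPM in the mutant libraries, small beside *Ccnd2*, and the sum stayed at -0.60 (adjusted p = 0.0265, edgeR). *Cdk4* shares 15.7% with *Tspan31*, and their sum was at -0.08 (adjusted p = 0.632, edgeR). *Ccnd3* shares 2.96% with *Bysl*, 0.33% with the pseudogene Ccnd3-ps and 0.237% with *Atp5l*, and the sum of all 4 was at 0.29 (adjusted p = 0.0606, edgeR), with *Atp5l* alone at 0.92 (0.0056). The antisense gene Gm17590, which shares 2.04% with *Cdk6*, had at most 5 counts in a library.

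Other genes of the G1 to S step were taken from a list of 32 regulators, of which 31 were tested and *Cdkn2a* was too low. Of these, 3 rose and 5 fell, where 10.4% of all tested genes were called higher and 9.84% lower, so the number that rose is near the share over all genes. The median log2 fold change was -0.13 against 0.01 over all tested genes, and -0.02 with the GC offset. *Cdkn1c*, which encodes the Cdk inhibitor p57, went from 152 ± 1.68 to 101 ± 10.1 CPM (SD, n = 3), a log2 fold change of -0.58 (adjusted p = 0.00977, edgeR), and shares 22.1% of its stretches with the overlapping antisense gene Gm44732. *Tfdp1*, the dimer partner of E2F factors, had a log2 fold change of -0.37 (SE 0.10, adjusted p = 0.0376, edgeR) and shares 11.5% of its stretches with the pseudogene Gm7390. *Cul1*, the scaffold of the ubiquitin ligase that destroys cyclin E and p27, had one of -0.33 (SE 0.08, adjusted p = 0.0276, edgeR).

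The 3 regulators that rose were *E2f4*, *Lin37* and *Myc*. *E2f4*, a repressive E2F factor, went from 29.0 ± 1.83 to 37.8 ± 3.11 CPM (SD, n = 3; log2 fold change 0.38, adjusted p = 0.0329, edgeR). *Lin37*, a subunit of the DREAM complex that silences cell cycle genes with E2f4, went from 7.61 ± 0.253 to 12.9 ± 2.10 CPM (0.77, adjusted p = 0.0104). *Myc*, a transcription factor that promotes G1 progression, went from 15.02 ± 0.656 to 21.3 ± 1.995 CPM (0.50, adjusted p = 0.0185). Genes that promote the step and genes that restrain it were called in both directions.

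The list of genes that E2F factors switch on held 24 genes, all tested, of which 1 rose and 6 fell, where 10.4% of all tested genes were called higher and 9.84% lower. The median log2 fold change was -0.31, and -0.28 with the GC offset. *Ccna2*, the S phase cyclin, went from 16.6 ± 0.676 to 9.44 ± 1.55 CPM (SD, n = 3; log2 fold change -0.82, adjusted p = 0.00813, edgeR), and shares 10.8% of its stretches with the overlapping *Exosc9*. *Mki67*, the Ki67 marker of cycling cells, went from 62.0 ± 2.92 to 41.6 ± 4.77 CPM (-0.57, adjusted p = 0.011), but with the exon length offset it was at -0.37 (adjusted p = 0.0532) and did not pass, nor with both offsets (-0.37, 0.067, edgeR). *Pola1*, a subunit of DNA polymerase alpha, fell by 0.87 (adjusted p = 0.0225), *Cdk1*, the mitotic kinase, by 0.52 (0.023) and *Mcm6*, of the replicative helicase, by 0.44 (0.0313, all edgeR). *Rfc3*, of the clamp loader, rose by 0.56 (adjusted p = 0.0292, edgeR). The sliding clamp *Pcna* had 24.5 ± 1.01 and 24.2 ± 2.42 CPM and a log2 fold change of -0.02 (adjusted p = 0.906, edgeR), and was picked here, outside the rule for named genes, to show a member of the list with little difference.

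The counts of both lists depended on single libraries, as did the count of all genes. The 3906 of all 19330 tested genes called became 2680 without control library 1, 910 and 872 without control libraries 2 and 3, and 2404, 3724 and 5001 without mutant libraries 1, 2 and 3 (edgeR). The 8 regulators called became 3 without control library 1, 0 without control library 2 or 3, 3 without mutant library 1, 6 without mutant library 2 and 8 without mutant library 3 (edgeR). At an unadjusted p under 0.05, 3 were higher and 6 lower in each fit without control library 2 or 3. The 7 E2F target genes called became 3, 2, 1, 3, 6 and 12 in the same order. *Ccna2* kept its call whichever library was left out, *Mki67* lost it without control library 3, and the other called genes named from these lists lost theirs without control library 2 and without control library 3. With the GC offset 5 of the named genes did not pass. *Tfdp1* was then at -0.33 in place of -0.37 (adjusted p = 0.0722), *Pola1* at -0.64 in place of -0.87 (0.068) and *Myc* at 0.36 in place of 0.50 (0.0897, edgeR). *E2f4* was at 0.20 in place of 0.38 (adjusted p = 0.157) and *Cul1* at -0.20 in place of -0.33 (0.173, edgeR), smaller by more than 1.5 times. In that fit 4 of 31 regulators and 7 of 24 E2F target genes were called in either direction, where 13.6% of all tested genes were. With the exon length offset alone, *Tfdp1* (-0.38, adjusted p = 0.0561), *Myc* (0.45, 0.0549) and *Mki67* did not pass (edgeR). With both offsets these genes did not pass either, nor did *E2f4*, *Cul1*, *Pola1* and *Mcm6*. *Mcm6* was then at -0.37 (adjusted p = 0.0612, edgeR).

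**Figure D5:**
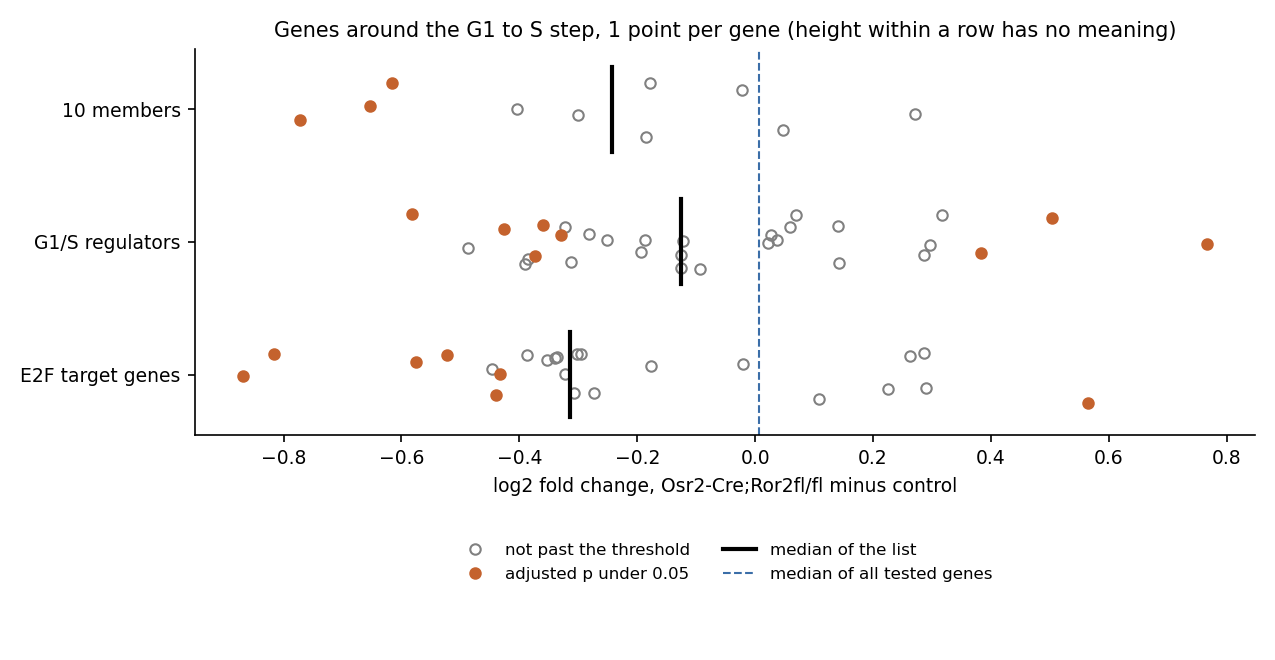
Log2 fold change, mutant over control (x axis), of each gene of the 10 members, the 31 tested G1/S regulators and the 24 E2F target genes, filled where the adjusted p was under 0.05, with a bar for each list's median. The medians are -0.24, -0.13 and -0.31, left of the dashed line for all tested genes at 0.01.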

How the data were processed

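Poly(A) selection, library kit and strand are not given in the sources used here. According to the methods, single-end reads of 75 cycles were aligned to mm10 with TopHat 2, whereas the submitters' processing notes name STAR 2.6.1d and Partek. The counting program and annotation are not given in the sources used here. The authors deposited estimated counts per gene, 47.8% of them whole, which were rounded to whole numbers. Their second table, each value being the count plus 1 times a factor per library, was not used. The count table holds 6 columns of other samples, which were not used. Groups and replicate numbers came from the sample labels. The titles repeat the same S numbers in both groups beside different sample numbers, and the meaning of these numbers is not given.

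The members and gene lists were chosen with earlier results of these data known. Tests used R 4.3.3, edgeR 4.0.16 (TMM, filterByExpr, quasi-likelihood test, Benjamini-Hochberg adjustment over 19330 genes), limma 3.58.1 and DESeq2 1.42.0, and were tested on simulated data. Positions, exon lengths and GC content came from GENCODE M21, which matched all 27506 genes. Exon length was the merged length of all annotated exons of a gene, which can exceed the length of its RNA. Genes sharing at least 20 stretches of 75 bases, read on both strands, were treated as sharing sequence. The genes named are the 10 members, *Ror2*, genes sharing sequence with a member, and in each list up to 6 called genes with the smallest p. Alternatives were the other tests, size factors and filters, offsets for GC content and exon length, the replicate block, summed counts, and leaving out each library.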

Additional observations from a re-analysis of the deposited data

How the results depend on the processing

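Among the 10 members, 187 values from the alternatives were compared with the main fit. Of these, 168 kept their side of the threshold, 18 lost a call and 1 gained it. Over 19 alternatives each, *Ccnd2* lost its call in 5, *Ccne2* in 6 and *Rb1* in 7. The other members had no call to lose. The fitted direction was the same in 182 of the 187 values, and the changes of sign were in *Ccnd3*, *Cdk4* and *Cdk6*, which were not called. The 3 members called became 0 with the replicate block, 1 with the GC offset, 1 with offsets for GC content and exon length, and 0 with the replicate block and GC offset together, and 0 to 4 when a library was left out. In the fits with the block, 4 members without and 3 with the GC offset were lower at an unadjusted p under 0.05. The replicate block gave adjusted p = 0.0564 for *Ccnd2*, 0.053 for *Ccne2* and 0.0539 for *Rb1* (edgeR). The same-numbered libraries had correlations of deviations of -0.1, -0.0795 and -0.00375, none of them above 0, and pairing by number was not tested. The paper's methods speak of 3 pairs of samples without saying which libraries form a pair. The 3906 genes called became 6341 with limma voom, 2013 with the block (1001 of them lower), 1291 with the block and GC offset, and 872 to 5001 when a library was left out. The 8 regulators called became 13 with limma voom, 3 with library size alone, 5 without a filter, 2 with the block, 4 with the GC offset, 5 with the length offset, 4 with both offsets, 1 with the block and GC offset, and 0 to 8 when a library was left out. The 7 E2F target genes called became 12 with limma voom, 3 with the block, 4 with both offsets, 1 with the block and GC offset, and 1 to 12 when a library was left out. Of all tested genes, 13.6% were called with the GC offset, 19.3% with the exon length offset and 14.5% with both, in either direction. Shares over all genes with library size alone and without a filter are not given here. *Ror2* was -0.43 with the block (adjusted p = 0.0582, edgeR), and -0.46 to -0.41 when a library was left out. It lay further below 0 with the GC offset, at -0.66 (adjusted p = 0.00283, edgeR). With both offsets *Ror2* was -0.60 (0.00357), and with the block and GC offset -0.67 (0.0203, adjusted p from edgeR). The difference in the *Cdk6* share was -1.91 percentage points without division by exon length, against -0.53 with it. The cause of these changes was not tested. *Ccne1*, *Ccne2* and *E2f1* rested on at most 491 counts per library, where counting error adds to the spread.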
